A study of Mus musculus with 4 samples.

Results

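Osteoclast precursors need, beside RANK, a second set of receptors that signal through an immunoreceptor tyrosine-based activation motif (ITAM), and 10 genes of that route were followed here across 4 stages of osteoclast formation in culture. The genes were Oscar, Trem2, Tyrobp, Fcer1g, Syk, Blnk, Btk, Tec, Plcg2 and Vav3, found by their symbols in the array's annotation. All 10 were found, on 17 probe sets out of 34945 that carry a single gene symbol, among 18193 named genes. RNA came from marrow cells of C57BL/6 mice 8 to 10 weeks old. Macrophages (BMM) were the product of 3 days in M-CSF (100 ng/ml), and pre-osteoclasts (pOC), mononuclear and positive for the stain TRAP, had then received M-CSF and RANKL, each at 100 ng/ml, for 2 days. After 2 more days with both cytokines, multinucleated osteoclasts were taken from plastic (mOCp) or from dentin slices, which they resorb (mOCd). Each stage was measured on 1 single-channel array, so no test between stages exists, and the labels do not say whether the RNA was of 1 mouse or of several.

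In this route the receptor itself carries no ITAM. Oscar, a receptor for collagen, pairs with the adaptor that Fcer1g encodes (the Fc receptor gamma chain), and Trem2, a receptor for lipids and other ligands, pairs with the one that Tyrobp encodes (DAP12). Src family kinases phosphorylate the adaptor's tyrosines, the kinase Syk docks there, and the scaffold Blnk brings the kinases Btk and Tec to Plcg2, a phospholipase that releases calcium and so feeds the calcium-dependent factor Nfatc1. Vav3 activates the GTPase Rac and acts on the osteoclast's cytoskeleton.

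The values are linear MAS5 intensities of the brightest probe set of each gene. The median probe set of each array served as its floor (12.7, 14.5, 14.8 and 15.8 for BMM, pOC, mOCp and mOCd), and a lower value was raised to it. Higher and lower mean a ratio of at least 2-fold where counts are given, provided the brighter value reached the array's 75th percentile (87.0, 81.5, 77.8 and 79.1 in the same order), and genes that reached it on either array are called eligible. All 10 genes were eligible in each of the 6 comparisons made. The disagreement of probe sets of the same gene was the only guide to error, and being read on the same arrays it leaves out all variation between cultures. For the probe-set SD, the log2 ratios of a gene's 2 brightest probe sets were subtracted, and the SD of this difference was divided by the square root of 2. The result describes a single probe set, and the undivided SD of the difference is larger. On the log2 scale the probe-set SD was 0.388 for pOC against BMM, 0.394 for mOCp against pOC, 0.503 for mOCd against pOC and 0.426 for mOCd against mOCp. Where a fold is compared with this SD below, the log2 ratio of that comparison is meant. The comparisons share arrays, so they are not independent of each other.

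The 250 bases upstream of the annotated start are shown for Oscar, the gene of the set that gained most, and for Trem2 and Blnk, which lost most. They are from RefSeq (GRCm38.p6), are written 5′ to 3′ on the gene's strand, and capitals mark the letters GAGGAA (the core bound by the myeloid factor PU.1) or GGAAA (the core bound by NFAT factors) on either strand, so that TTCCTC and TTTCC are the same cores read from the other strand. Oscar lies on the minus strand at chr7:3616158-3616407, Trem2 on the plus strand at chr17:48346151-48346400 and Blnk on the minus strand at chr19:40994222-40994471.
Oscar: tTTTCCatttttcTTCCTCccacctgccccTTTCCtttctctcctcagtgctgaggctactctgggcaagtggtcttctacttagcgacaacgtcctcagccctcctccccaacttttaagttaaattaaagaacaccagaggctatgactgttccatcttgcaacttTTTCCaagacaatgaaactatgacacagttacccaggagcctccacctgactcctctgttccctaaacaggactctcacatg
Trem2: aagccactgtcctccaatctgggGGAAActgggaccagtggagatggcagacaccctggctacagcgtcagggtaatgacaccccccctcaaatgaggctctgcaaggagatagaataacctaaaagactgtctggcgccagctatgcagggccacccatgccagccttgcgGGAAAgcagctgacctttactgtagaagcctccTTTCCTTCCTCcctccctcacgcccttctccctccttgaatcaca
Blnk: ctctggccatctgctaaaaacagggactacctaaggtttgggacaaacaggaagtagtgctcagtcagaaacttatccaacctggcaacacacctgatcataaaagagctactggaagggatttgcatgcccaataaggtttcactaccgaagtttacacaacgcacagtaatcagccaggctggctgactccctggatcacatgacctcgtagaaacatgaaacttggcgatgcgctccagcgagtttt
The Oscar window held 1 PU.1 core and 3 NFAT cores, and the Trem2 window, of a gene that went the other way, held 1 and 3 as well. The Blnk window held neither. Over the promoters of 9 of the 10 genes that matched this table (12 start sites), 3 start sites had a PU.1 core and 7 an NFAT core, and 9 had the E-box letters CANNTG. Of all 32851 promoters in the table, 23.3% held the PU.1 core, 55.6% the NFAT core and 66.2% the E-box within the same length. The 2 cores can share bases, as they did once, upstream of the inner start of Syk. A match in letters does not show that a factor binds.

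Across the course the genes diverged rather than moving as a block. Oscar went from 4.8, below the floor, to 2641.6, Syk was higher in osteoclasts, Trem2 and Blnk were lower, and Vav3 dipped in pOC and returned. Fcer1g, an adaptor, was lower in pOC and on dentin than in BMM, while Tyrobp, the other adaptor, and the kinases and phospholipase Btk, Tec and Plcg2 stayed within 2-fold over all 4 arrays. Those 4 of 10 genes (40.0%) compare with 47.3% of the 7794 genes that reached the 75th percentile on some array.

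**Figure D1:**
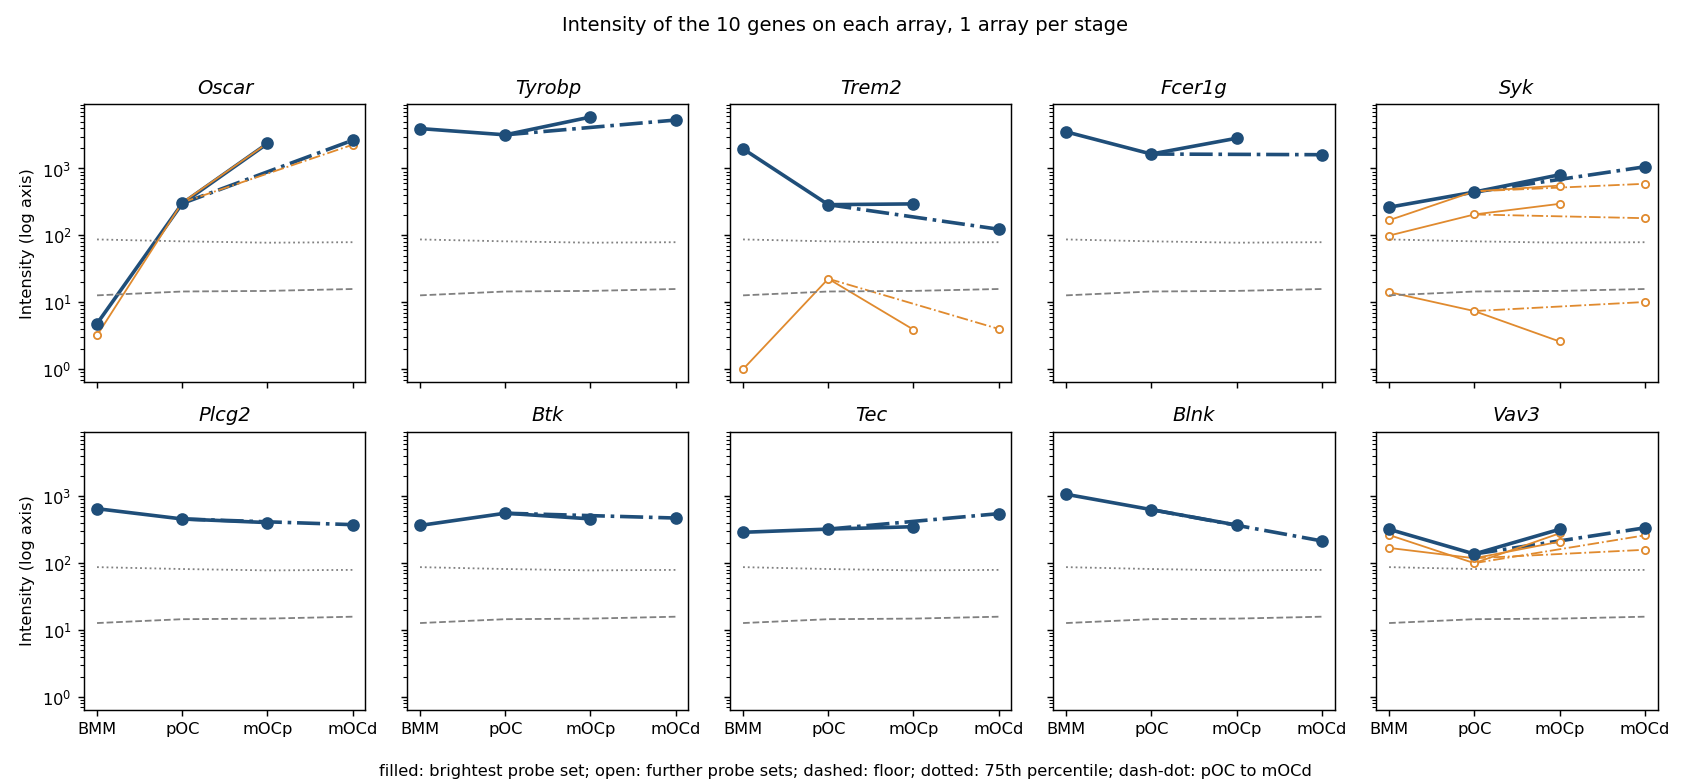
Intensity (log axis) of the 10 genes in BMM, pOC, mOCp and mOCd, 1 array each, with the brightest probe set filled and further probe sets open; the dashed line is the floor and the dotted line the 75th percentile of each array. Solid lines join BMM, pOC and mOCp and dash-dot lines join pOC to mOCd. Oscar climbs from 4.8 to 2641.6, Trem2 and Blnk go down on their brightest probe sets, and Tyrobp, Plcg2, Btk and Tec each stay within 2-fold.

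Among the receptors, Oscar read 4.8 in BMM and 300.2 in pOC, then 2362.9 on plastic and 2641.6 on dentin. Only the BMM value lay under the floor, so its gain is a lower bound: at least 23.6-fold from BMM to pOC (log2 ratio at least 4.56). A further 7.87-fold separated mOCp from pOC and 8.80-fold mOCd from pOC, while mOCd and mOCp differed by 0.16 on the log2 scale, less than the probe-set SD, with the sign turned (-0.18) by scaling to the spike-in controls. Over the whole course Oscar was at least 186-fold higher on plastic and at least 208-fold on dentin than in BMM. These bounds move with the floor: at the 60th percentile the log2 ratios to BMM were at least 3.64 for pOC, 6.62 for mOCp and 6.78 for mOCd. The other Oscar probe set read 3.2, 310.1, 2383.5 and 2264.3, which is the same course, with a difference of -0.07 between dentin and plastic. In mOCp against pOC only 0.445% of the 7195 eligible genes had a ratio as high as that of Oscar, and in mOCd against pOC 0.373% of 7231.

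Trem2 ran the other way, at 1964.6 in BMM and 287.8 in pOC, then 295.6 on plastic and 123.5 on dentin. Its value was highest in BMM, close to equal in pOC and mOCp, and lowest on dentin. The ratio of pOC to BMM was 6.83-fold lower (log2 -2.77), mOCd was 2.33-fold lower than pOC (-1.22) and 2.39-fold lower than mOCp (-1.26), and mOCd was 15.9-fold lower than BMM. Trem2 was the only gene of the 10 that reached 2-fold between dentin and plastic, where 1.39% of the 6915 eligible genes were at least as low. These values come from a probe set whose suffix (_s_at) marks a design that can bind more than one transcript. The other Trem2 probe set read 1.0, 22.5, 3.9 and 4.0, above the floor in pOC alone, and for pOC against BMM gave a log2 ratio of at least 0.83, the opposite sign. The low level of Trem2 in osteoclasts therefore rests on 1 probe set. Among 7 macrophage markers, 3 were also lower in pOC than in BMM: Adgre1 (1581.9 and 319.6), C1qa (3372.4 and 41.9) and Mrc1 (770.2 and 36.3), and 3 were lower on dentin than on plastic. Csf1r, Cd68, Lyz2 and Itgam stayed within 2-fold between BMM and pOC, with Itgam 1.84-fold lower in pOC (462.2 and 251.4). The part of this shift in the Trem2 values was not tested.

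The adaptors that carry the ITAM were bright on every array. Tyrobp read 3949.5 in BMM and 3182.9 in pOC, then 5871.6 on plastic and 5297.6 on dentin, with its lowest value in pOC and both mature cultures above BMM. The mature cultures were 1.84-fold (mOCp, log2 0.88) and 1.66-fold (mOCd, 0.73) above pOC, each more than the probe-set SD but short of 2-fold. Scaling turned the sign of the small differences of mOCd from BMM (0.42, but -0.18 after scaling to the spike-in controls) and of mOCd from mOCp (-0.15, but 0.03 after quantile normalization).

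Fcer1g read 3530.9, 1644.6, 2827.8 and 1606.8 in the same order of arrays. It was low in pOC and on dentin and high in BMM and on plastic. The step from BMM to pOC was 2.15-fold lower (log2 -1.10), and mOCp lay 1.72-fold above pOC (0.78) whereas mOCd differed from pOC by -0.03. Between dentin and plastic Fcer1g was 1.76-fold lower (-0.82), nearly double the probe-set SD, and 4.12% of eligible genes were at least as low. With spike-in scaling this difference became -1.16 and passed 2-fold. The adaptor of Oscar and the receptor itself thus went in opposite directions from BMM to pOC. Tyrobp and Fcer1g have 1 probe set each.

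Syk, the kinase that docks on the phosphorylated ITAM, read 263.6 in BMM and 444.1 in pOC, then 805.2 on plastic and 1059.2 on dentin. Each mature culture exceeded pOC, which exceeded BMM. The first step was 1.68-fold (log2 0.75), mOCp was 1.81-fold above pOC (0.86) and mOCd 2.39-fold (1.25), and against BMM the ratios were 3.05-fold for mOCp and 4.02-fold for mOCd. The lead of dentin over plastic, 0.40, was within the probe-set SD. The second probe set read 168.6, 454.6, 554.9 and 590.3, and the third 99.3, 205.5, 296.2 and 180.8. On these most of the gain came before pOC, at 2.70-fold and 2.07-fold, and mOCd differed from pOC by 0.38 and -0.18 on the log2 scale. The fourth probe set read 14.2 in BMM and lay under the floor on the other arrays. The 2-fold difference of mOCd from pOC therefore held on the brightest probe set alone, and it fell to 0.78 with spike-in scaling and to 0.39 as the mean over probe sets, while the ratio of mOCp to BMM was 2.98-fold to 3.29-fold on all 3 bright probe sets. For mOCd against BMM the second probe set gave 3.50-fold and the third 1.82-fold, short of 2-fold.

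Blnk, the scaffold between Syk and the phospholipase, was lower on each array of the series, with 1067.3 in BMM and 629.5 in pOC, then 370.6 on plastic and 214.4 on dentin. No 2 neighbours in that order were 2-fold apart. The differences of pOC from BMM and of mOCp from pOC were -0.76 each on the log2 scale and dentin lay 0.79 below plastic (log2 ratio -0.79), all larger than the probe-set SD of their comparison. This left mOCd 2.94-fold lower than pOC and 4.98-fold lower than BMM, and mOCp 2.88-fold lower than BMM. With spike-in scaling the difference of dentin from plastic became -1.13. Blnk, also known from B cells, was measured by 1 probe set.

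Btk read 365.2 in BMM and 556.3 in pOC, then 457.9 on plastic and 471.2 on dentin. Its highest value was in pOC, 1.52-fold above BMM (log2 0.61), and mOCp and mOCd differed from each other by 0.04. Its small excess of mOCd over BMM (0.37) became -0.23 with spike-in scaling. Tec, a kinase of the same family, read 288.5, 321.9, 349.5 and 548.0, with the first 3 arrays within 0.28 of each other and dentin above them. On dentin Tec was 1.57-fold above plastic (0.65) and 1.70-fold above pOC (0.77), more than the probe-set SD and less than 2-fold. With spike-in scaling the log2 ratios were 0.31 and 0.29, under the probe-set SD, and mOCd against BMM, 0.93 as deposited, was 1.01 after quantile normalization. Tec had the largest positive difference between dentin and plastic among the 10 genes, a rank it kept under median scaling, quantile normalization and spike-in scaling.

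Plcg2 read 649.8 in BMM and 456.3 in pOC, then 403.2 on plastic and 375.2 on dentin. Between neighbouring stages only the gap from BMM to pOC (1.42-fold lower, log2 -0.51) exceeded the probe-set SD of its comparison, and pOC, mOCp and mOCd lay within 0.28 of each other. Against BMM, mOCd was lower by 1.73-fold (-0.79), a difference that passed 2-fold after median scaling (-1.11) and spike-in scaling (-1.39). Btk, Tec and Plcg2 have 1 probe set each.

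Vav3, the Rac activator, read 320.0 in BMM and 136.7 in pOC, then 319.4 on plastic and 336.2 on dentin. The pOC value stood alone below the others. It was 2.34-fold lower than BMM (log2 -1.23), and from it mOCp was 2.34-fold (1.22) and mOCd 2.46-fold (1.30) higher, which left both mature cultures within 0.07 of BMM (mOCd at -0.53 with spike-in scaling). A second probe set (262.9, 99.7, 278.2 and 259.8) showed the same dip at -1.40, 1.48 and 1.38. The third (168.5, 118.1, 208.7 and 158.0) had its lowest value in pOC too, at -0.51 from BMM, and recovered by 0.82 on plastic and 0.42 on dentin. The gain on dentin fell to 0.83 with spike-in scaling. Because RANKL and 2 days of culture separate the arrays together, neither the dip nor the other steps can be assigned to RANKL or to time, which cannot be told apart here. Between pOC and the mature cultures, time and maturation, and for mOCd dentin as well, changed together.

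**Figure D2:**
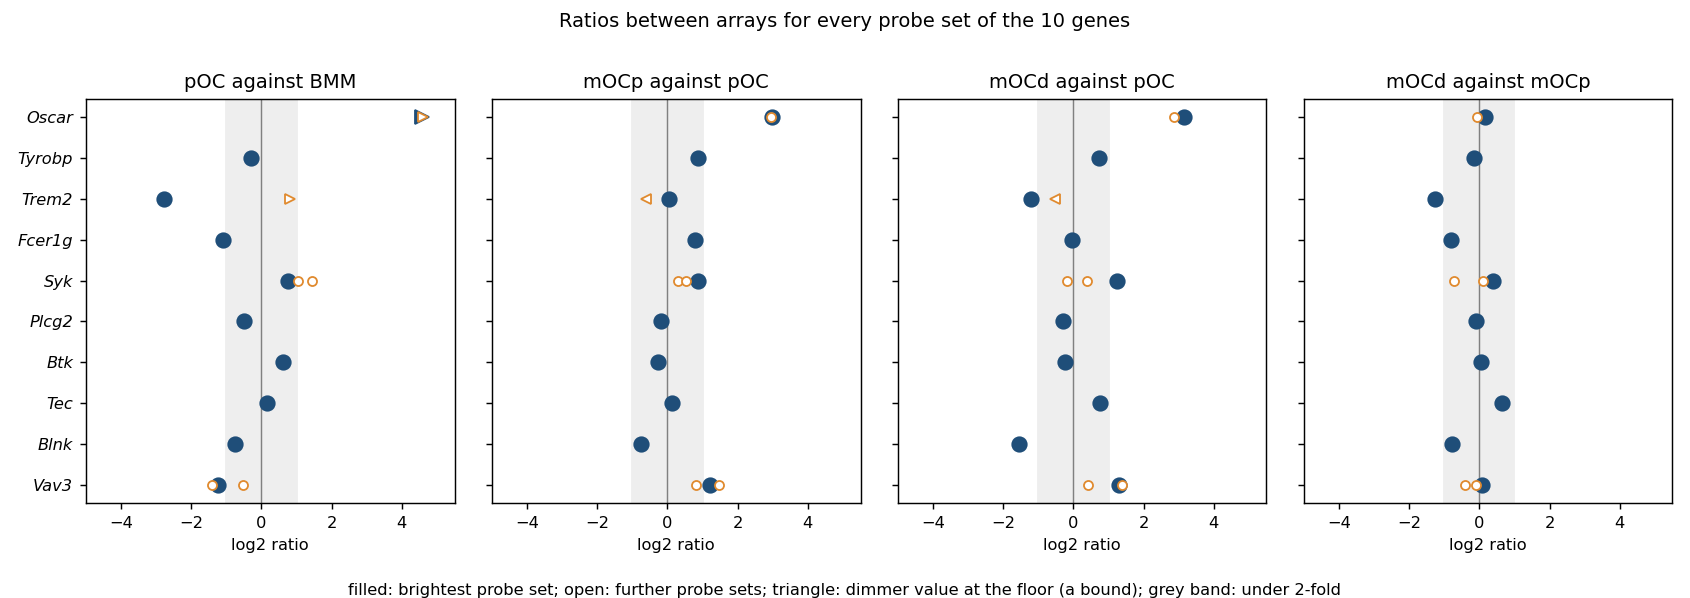
Log2 ratio between arrays for each probe set of the 10 genes in 4 comparisons; filled points are the brightest probe set, open points further ones, triangles bounds with the dimmer value at the floor, and the grey band marks ratios under 2-fold. Probe sets of Oscar and Vav3 lie on the same side of 0 in the first 3 panels, those of Trem2 on opposite sides for pOC against BMM, and most points of the last panel lie inside the band.

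Counted together, pOC against BMM had 1 of the 10 genes higher (Oscar) and 3 lower (Trem2, Fcer1g and Vav3), against 11.1% higher and 13.2% lower among 7260 eligible genes. In mOCp against pOC 2 were higher (Oscar and Vav3) and 0 lower, where 8.8% and 11.4% of all eligible genes were. In mOCd against pOC 3 were higher (Oscar, Syk and Vav3) and 2 lower (Trem2 and Blnk), where the shares were 10.8% and 12.3%. Between dentin and plastic 0 were higher and 1 lower (Trem2), against 2.15% and 2.55%. Over the whole course 2 were higher on plastic (Oscar and Syk) and 2 lower (Trem2 and Blnk), against 16.9% and 19.4%, and 2 were higher on dentin (the same genes) and 3 lower (with Fcer1g), against 18.8% and 20.3%. With 10 genes, 1 gene is 10.0% of the set, so these counts are coarse. The median log2 ratio of the 10 genes was -0.41 for pOC against BMM, 0.45 for mOCp against pOC, 0.35 for mOCd against pOC and -0.03 for mOCd against mOCp, beside medians over all eligible genes of 0.04, -0.03, -0.01 and 0.01.

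These counts depend on how arrays are made comparable. The share of calls over all genes that were higher was 45.8% for pOC against BMM and 32.6% after median scaling, which lowers each of those log2 ratios by 0.19. It was 43.6% for mOCp against pOC, 46.8% for mOCd against pOC and 45.8% for mOCd against mOCp, and became 32.7%, 16.7% and 12.1% with spike-in scaling. For mOCd against mOCp it was 32.0% after median scaling. For mOCp and mOCd against BMM, 46.5% and 48.1% became 34.9% and 33.6% after median scaling and 33.2% and 22.7% with the spike-ins. Median scaling moved all log2 ratios by -0.03 (mOCp against pOC) to -0.32 (mOCd against BMM), and spike-in scaling lowered them by the difference of the spike-ins. These controls, of 18 probe sets, were 0.47 brighter in mOCd than in pOC and 0.34 brighter than in mOCp on the log2 scale. The transferrin receptor control, a guide to RNA or labelling quality, had a 3′ over 5′ log2 ratio of 1.00 in BMM and 1.01 in pOC, then 0.84 on plastic and 1.70 on dentin, while those of the Gapdh and actin controls ranged from -0.43 to -0.29 and from 0.16 to 0.29. The part of this difference in the dentin results was not tested.

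The arrays carried the markers of their labels. Of 9 osteoclast markers (among them Ctsk, Acp5 and Mmp9) 4 exceeded the floor in BMM and 9 on each other array, and their summed intensity went from 119.4 in BMM to 30922.3 in pOC, with 47845.9 on plastic and 47553.8 on dentin. The 7 macrophage markers summed to 22105.4, 16327.8, 25887.2 and 21666.1, with Mrc1 under the floor on dentin and C1qa at 38.9 there and 108.9 on plastic. Most of this sum on every array was Csf1r, Cd68 and Lyz2 (7644.1, 7367.1 and 5970.7 on dentin). It therefore does little to show how low C1qa and Mrc1 were in pOC and the mature cultures. Tyrobp and Fcer1g both had a low pOC value and the order of plastic over dentin, as did that sum. Fcer1g was lowest on dentin (1606.8), whereas Tyrobp and the sum were lowest in pOC. Whether fewer cells or less RNA per cell lay behind these values cannot be told apart in bulk RNA. B cell markers, which bear on Blnk, Btk, Syk and Plcg2, were near or under the floor throughout: of 7 measured, 2, 1, 3 and 1 exceeded it, none above 22.5, and Cd79a and Ms4a1 were under it on all 4 arrays. Of 5 mast cell and basophil markers, which bear on Fcer1g, 0 exceeded the floor on any array. T and NK cell markers exceeded it for 0, 0, 1 and 1 of 5 genes, with a summed level of 11.4 to 39.2. Dendritic cell markers did for 1, 0, 2 and 1 of 4, summing to 27.5 to 77.0. Of the megakaryocyte and platelet list 2 to 4 of 4 exceeded the floor, and nearly all of its summed level of 1286.8 to 2435.2 was Pf4. Neutrophil markers exceeded it for 6 or 7 of 8 and summed to 323.5 in BMM and 841.8 in pOC, then 1886.1 on plastic and 968.6 on dentin. Most of the sum on plastic was S100a8 (1112.6) and Lcn2 (367.9). S100a9 and Ltf were also highest there, and Ngp read 101.2 on plastic and 100 on dentin. Camp was highest on dentin, and Elane (41.0) and Mpo (29.4) were highest in pOC.

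**Figure D3:**
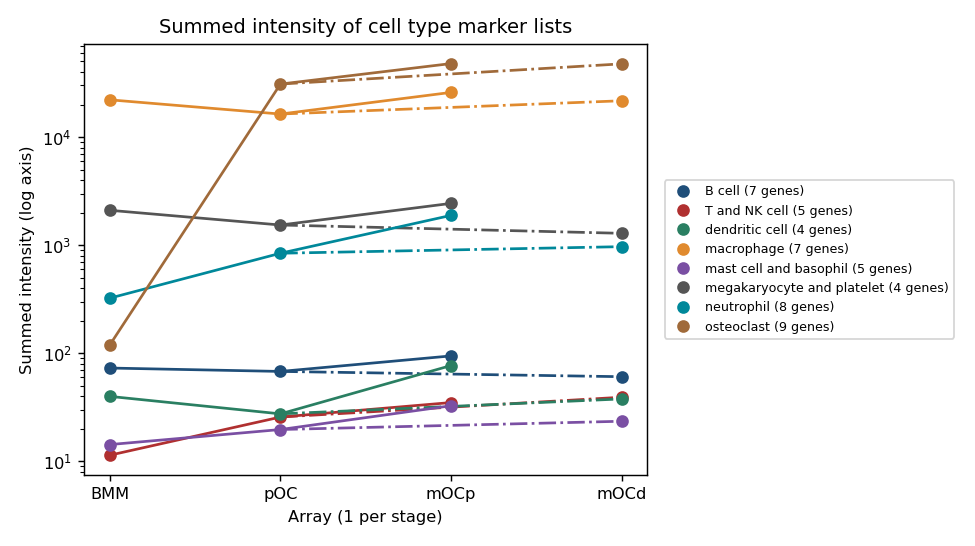
Summed intensity (log axis) of 8 marker lists in BMM, pOC, mOCp and mOCd, 1 array each, with solid lines from BMM to mOCp and dash-dot lines from pOC to mOCd. Osteoclast markers climb from 119.4 to 30922.3 by pOC, the macrophage sum stays between 16327.8 and 25887.2, and B, T, NK, mast and dendritic cell lists stay under 100. The macrophage sum is mostly Csf1r, Cd68 and Lyz2.

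Around the 10 genes, 83 of 93 other symbols of the route had a probe set of their own and were grouped by role, and the other 10 were not analysed here. The counts of each list below are to be read against the shares of all eligible genes given above, which were 11.1% higher and 13.2% lower in pOC against BMM, 8.8% and 11.4% in mOCp against pOC, 10.8% and 12.3% in mOCd against pOC, and 2.15% and 2.55% in mOCd against mOCp. The lists are short, so that a single gene moves their shares by much.

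Of the activating receptors and partner chains, 8 of 11 eligible were lower in pOC than in BMM and 1 higher (median -1.38), where 13.2% of all eligible genes were lower. The high-affinity Fc receptor Fcgr1 was 34.5-fold lower (1967.2 in BMM and 57.0 in pOC), Fcgr3 9.67-fold and Cd300lb 4.39-fold, and the lectin Clec4n was 3.23-fold higher. Fcgr1 and Fcgr3 are themselves receptors that use the Fcer1g adaptor. In mOCp against pOC 5 of 12 were higher and 0 lower (median 0.63), against 8.8% and 11.4% of all eligible genes, led by Pilrb1 at 4.16-fold, the lectin Clec4e at 2.96-fold and Trem3 at 2.91-fold. In mOCd against mOCp 0 of 12 were higher and 5 lower (median -0.86), against 2.15% and 2.55%, led by Fcgr3 at 3.94-fold, Sirpb1a at 3.93-fold and Clec5a, a partner of the Tyrobp adaptor, at 2.91-fold. In mOCd against pOC 1 of 9 was higher (Clec7a, the receptor for fungal glucans, at 3.12-fold) and 2 were lower (Clec5a at 3.10-fold and Fcgr3 at 2.40-fold). The median of the macrophage markers took the same signs, at -0.88 for pOC against BMM, 0.69 for mOCp against pOC and -0.85 for mOCd against mOCp. The neutrophil marker sum was likewise highest on plastic, where it was mostly S100a8 and Lcn2. The part of the macrophage and neutrophil markers in the list's values was not tested. The list's median for mOCd against pOC (0.24) turned to -0.24 with spike-in scaling. The mature cultures read 30.3 and 16.7 for Fcgr1, the latter close to the floor of 15.8, and its second probe set read 564.9, 31.5, 17.0 and 26.0, with dentin above plastic. Clec4n was 6.48-fold higher on plastic and 3.80-fold higher on dentin than in BMM.

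The list of inhibitory receptors and the phosphatases and adaptors that act with them had 8 of 19 lower and 3 higher in pOC than in BMM (median -0.83), against 13.2% and 11.1% of all eligible genes. Of the 8, Sirpa, Cd300a, Cd300lf and Pilra are surface receptors, and Dok2, Sla, Inppl1 and Ubash3b are intracellular. Cd300lf was 8.95-fold lower, the adaptor Dok2 5.97-fold and Cd300a 4.76-fold, while the lectin Clec4a2 was 2.78-fold, Dok3 2.24-fold and the ubiquitin ligase Cblb 2.19-fold higher (log2 0.28 on its dimmest probe set). In mOCp against pOC 1 of 17 was higher, Pilra at 2.58-fold, and 0 lower (median 0.51). On dentin Cblb was higher again, at 3.16-fold over pOC, and Fcgr2b, the inhibitory Fc receptor, 2.09-fold lower, each 1 of 16 (median 0.20). Against plastic 4 of 17 were lower on dentin (median -0.13), where 2.55% of all eligible genes were, led by Pilra at 2.86-fold, Fcgr2b at 2.66-fold and Pirb at 2.42-fold.

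Src family kinases and their regulators split by member. In pOC against BMM 2 of 7 were higher and 2 lower (median -0.70). Src, the family member that osteoclasts need for resorption, was at least 16.0-fold higher (4.4 in BMM and 203.4 in pOC) and the phosphatase Ptpre 2.68-fold, whereas the membrane adaptor Pag1 was 3.71-fold and the kinase Fyn 3.10-fold lower. Fgr was 3.15-fold higher in mOCp than in pOC, the 1 call of 7 there (median 0.08), and 2.37-fold lower on dentin than on plastic, the 1 call of 8 (median 0.42). In mOCd against pOC 0 of 7 were called (median 0.27).

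Adaptors were higher for 1 of 11 and lower for 2 in pOC against BMM (median -0.43). Lat, a scaffold best known from T cells, read 1.6 in BMM and 149.2 in pOC, then 295.3 on plastic and 489.8 on dentin on its only probe set, at least 11.7-fold higher in pOC and then 3.28-fold higher on dentin than in pOC. Beside it 3 of 5 T and NK cell markers (Cd3d, Cd3g and Ncr1) were under the floor on all 4 arrays, Cd3e read 21.4 on dentin, above the floor of 15.8, and Cd2 read 15.1 on plastic, just above 14.8. Their part in the values of Lat was not tested. Fyb was 3.71-fold and Hcls1 2.19-fold lower in pOC. Gab2 was 2.47-fold higher on plastic and 2.29-fold on dentin than in pOC, and Pik3ap1 2.06-fold on plastic. For Gab2 this held on the brightest probe set alone, since the others gave log2 ratios of 0.82 and 0.60 on plastic and 0.18 and 0.91 on dentin, and the second probe set of Pik3ap1 gave 0.98. With the brightest probe sets, 2 of 11 adaptors were higher in each mature culture and 0 lower (medians 0.73 and 0.12). Fyb was 2.59-fold lower on dentin than on plastic, the 1 call of 11 (median -0.20). Of 6 close relatives of the 10 genes that were measured, Vav1 alone was bright enough to be eligible. It read 228.9, 101.1, 90.5 and 81.7 over the arrays, 2.26-fold lower in pOC than in BMM, and the mature cultures stayed within 2-fold of pOC.

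Of the effectors beside and beyond the phospholipase (PI3-kinases, protein kinase C, calcium channels, Rac and Nfatc1 among them), pOC against BMM had 2 of 13 eligible higher and 3 lower (median -0.27). Nfatc1, the transcription factor on which this route converges, was 19.5-fold higher and the GTPase Rac2 2.47-fold. The size for Nfatc1 varied by probe set, at log2 4.28 on the brightest and 4.76, 1.48, 4.36 and 2.53 on the others. Prkcb, a calcium-dependent protein kinase C, was 3.83-fold lower, Pik3cg, a PI3-kinase subunit, 3.34-fold and the calcium channel Orai1 2.0-fold, at the threshold (log2 -0.70 on its second probe set). Prkcb then stood 6.59-fold higher in mOCp and 5.26-fold higher in mOCd than in pOC (424.5, 110.9, 730.5 and 583.0 over the arrays), a dip in pOC like that of Vav3. The calcium release channel Itpr3 was 2.37-fold higher on plastic and 3.26-fold on dentin, and Pik3cb 2.22-fold and 2.10-fold, which made 3 of 13 higher and 0 lower in each (medians 0.50 and 0.37, the second at -0.10 with spike-in scaling). Between dentin and plastic 0 of 13 were called (median -0.20). For mOCd against pOC the medians of the inhibitory, Src family and adaptor lists turned negative too with spike-in scaling, at -0.28, -0.20 and -0.35.

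**Figure D4:**
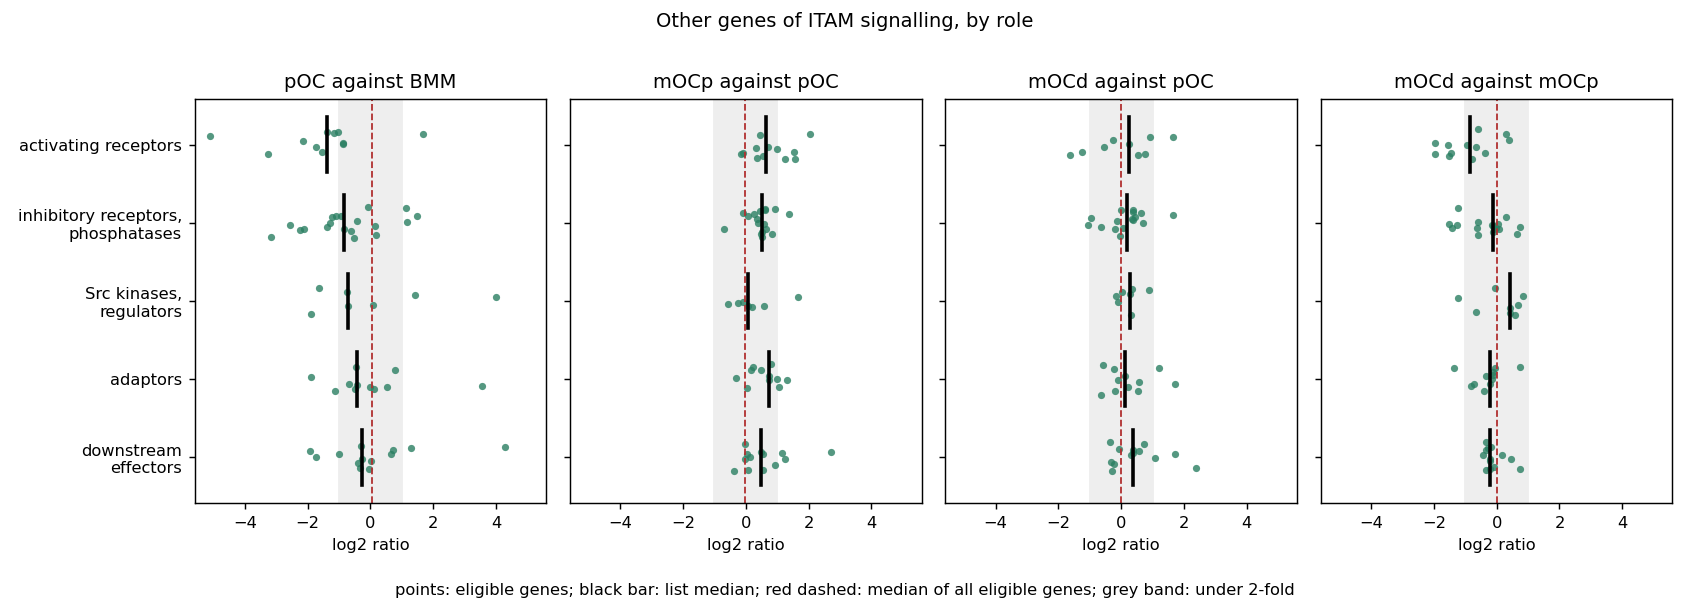
Log2 ratios of eligible genes of 5 lists by role in 4 comparisons, with the list median as a black bar, the median of all eligible genes as a red dashed line and a grey band for ratios under 2-fold. The activating receptors have medians of -1.38 in pOC against BMM, 0.63 in mOCp against pOC and -0.86 in mOCd against mOCp.

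For the 6 genes that spanned at least 2-fold, the genes with the most similar course over the 4 arrays were found among 7794 by the root mean square difference of centred log2 values, which for 4 points is a loose criterion. Oscar was nearest to Akr1c18, a hydroxysteroid dehydrogenase (difference 0.17, with 2.8, 307.8, 2569.7 and 2113.6), then to the carboxypeptidase Cpe (0.20) and the metallothionein Mt3 (0.33). Trem2 was nearest to Frmd4b (0.13), Tmem106a (0.13) and the V-ATPase subunit gene Atp6v0a1 (0.15). Fcer1g lay near Znfx1, Rab3d and the phosphatase gene Ptpn6 (0.11 each), and Syk near Klhl21 (0.05), Lrsam1 (0.06) and Wdr91 (0.07). Blnk was nearest to Mfsd1 and Lnpk (0.05 each) and Nt5c3b (0.07), and Vav3 to Acer3, a ceramidase (0.04), Tmc6 (0.04) and Gdpd5 (0.05). Values under the floor were raised to it before these courses were compared. In BMM this set Oscar and Akr1c18, Cpe and Mt3 (2.8, 1.1 and 9.2) to the same value. On dentin it raised Atp6v0a1 (10.6) and Nt5c3b (12.1).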

How the data were processed

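The deposited values were linear intensities, 1 per probe set and array, made with MAS5 per the submitters' processing notes (version not given in the sources used here), and the 2% trimmed mean was 100.0 on every array. Scaling of this kind removes differences in total mRNA, and MAS5's background correction leaves dim probe sets imprecise. Of 45037 non-control probe sets, 34945 carried 1 gene symbol in a platform annotation of 2016, 932 several and 9160 none listed. Of the 34945, 34741 matched a RefSeq gene of GRCm38.p6 by Entrez identifier, and 0 symbols changed. Values were floored at the 50th percentile before log2, and the probe set with the highest mean stood for its gene. With 1 array per group no p-value or standard error was computed, so that precision is limited by having 4 arrays. The counting was tested on simulated data. Groups followed the labels, and the alternatives were 2 other floors, median, quantile and spike-in scaling, other choices of probe set, 1.5-fold and a 60th percentile brightness. Named genes were the 10 genes, the 3 largest calls per list and direction in each comparison (those between neighbouring stages are given, with few against BMM), and the 3 most similar genes. The members and lists were chosen with earlier results of these data known. The files named no build, so no probe set coordinates are given. Computation used Python 3.11.15, numpy 2.4.6 and pandas 2.3.3.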

Additional observations from a re-analysis of the deposited data

How the results depend on the processing

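Of 21 calls on single genes over the 6 comparisons, 21 kept their direction and call with the floor at the 25th or 60th percentile, with median scaling and with quantile normalization. The bounds of Oscar against BMM moved with the floor, from 3.64 to 5.97 for pOC, 6.62 to 8.94 for mOCp and 6.78 to 9.10 for mOCd. Apart from Oscar in BMM, the lowest value used was 123.5, above the 75th percentile of every array. A change of floor therefore could not alter the other calls. With scaling to the spike-ins 19 of the 21 calls kept direction and call, and with the mean over probe sets 17 of 21. Without suffixed probe sets 16 of 18 that could be computed did, and on the second brightest probe set 10 of 13, over the 4 genes that have one. Trem2 in pOC against BMM turned to 0.83 both without suffixed probe sets and on the second brightest, where the BMM value lies under the floor. Counts of the 10 genes moved as follows. With the spike-ins, mOCd against pOC had 1 higher and mOCd against mOCp 3 lower. Over all eligible genes the same scaling left 378 of 7231 higher in mOCd against pOC, where 779 were as deposited. In mOCd against mOCp it made 420 of 6915 lower, where 176 were as deposited. With the mean over probe sets, mOCd against pOC had 1 lower and mOCd against mOCp 0 lower. Without suffixed probe sets these were also 1 and 0, and mOCp against BMM had 1 lower. On the second brightest probe set, pOC against BMM had 2 higher and 1 lower, and 0 were lower in mOCd against pOC, mOCd against mOCp, mOCp against BMM and mOCd against BMM, where the cause is in part that 4 of 10 genes were counted. At 1.5-fold, pOC against BMM had 3 higher, mOCp against pOC 5 higher and 1 lower, mOCd against pOC 5 higher, and mOCd against mOCp 1 higher and 3 lower. No share over all eligible genes is given here at 1.5-fold or for the other choices of probe set. The shares given above are for 2-fold, which fewer genes reach, and are not the measure for these counts. The 60th percentile as the brightness needed moved no count of the 10 genes by over 1.5 times. With the spike-ins, Syk and Vav3 fell under 2-fold in mOCd against pOC (log2 0.78 and 0.83). Fcer1g and Blnk passed it in mOCd against mOCp (-1.16 and -1.13). For the remaining changes the cause was not tested. Of the pathway lists' counts 96 of 702 moved by over 1.5 times, and of their medians 28 of 279 by more than the probe-set SD. No paired analysis was possible because each group has 1 array. Signal over background limits Oscar in BMM and the dim probe sets of Trem2 and Syk.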
